A study of Homo sapiens with 12 samples.

Results

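The genes described here are 51 human genes for drug-metabolizing enzymes and drug transporters, chosen by name out of the 57736 genes counted in HepG2 and Ls174 cells. They comprise 26 phase I enzymes, 17 phase II enzymes and 8 transporters. A gene was kept for a cell line when its counts summed over the 6 libraries of that line reached 10, which held for 39 genes in HepG2, 29 in Ls174 and 25 in both. Of the phase I enzymes 18 were kept in HepG2 and 16 in Ls174, of the phase II enzymes 15 and 10, and of the transporters 6 and 3. The 8 genes kept in neither line were CYP3A4, CYP2C8, CYP2C19, CYP2D6, FMO1, SULT1E1, UGT2B15 and SLCO1B1, and CYP2C19, FMO1 and SLCO1B1 had no count in any of the 12 libraries.

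Drug metabolism proceeds in stages. Phase I enzymes, mainly the cytochromes P450 with the carboxylesterases, flavin monooxygenases and epoxide hydrolases, oxidize or hydrolyse a compound, and phase II enzymes then attach a polar group such as sulfate (SULT), glucuronic acid (UGT), glutathione (GST and MGST), an acetyl group (NAT) or a methyl group (TPMT). Uptake carriers of the SLC families bring drugs, bile acids and organic ions into the cell, and efflux pumps of the ABC family carry compounds and their conjugates out. The liver holds most of this capacity and the intestine holds part of it.

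HepG2 is a line from a human liver carcinoma and Ls174 a line from a human colon cancer, and the labels give the genotype of both as WT, with no introduced change. Cells of each line were incubated for 24 h with a methanol extract of the red seaweed Hypnea musciformis (HME), at 0.7 mg/ml according to the labels, or were left untreated. The concentration in the study's methods differs from that in the labels. The study's methods describe 3 biological replicates per condition, giving 12 libraries in 4 groups. The libraries were 3′ mRNA libraries, in which a read comes from the end of a transcript, so that counts were not scaled by transcript length.

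Library totals ranged from 1790841 to 3656662 counts. Levels are given in CPM, the counts divided by a library total that was scaled with TMM over all 12 libraries, in the order of replicates 1, 2 and 3. A floor of 3 counts per library came to at most 1.87 CPM in untreated and 1.80 CPM in treated HepG2 cells, and to 1.48 and 1.09 CPM in the corresponding Ls174 cells. All 10 liver markers (among them ALB and APOB) were counted in every HepG2 library, with summed levels of 20339.6 to 24535 CPM in control and 16422 to 18488 CPM in HME cells. The 10 intestine markers (among them CDX2 and CDH17) summed to 1001 to 1393 CPM in control and 748 to 886 CPM in HME-treated Ls174 cells. ASCL2 alone had a mean of 750 CPM in Ls174 control cells, where KRT20 had no count and MUC2 a mean of 1.15 CPM. In HepG2 control cells the list summed to 70.4 to 218 CPM. Of the 8 markers tested between the controls, 1 was higher in HepG2, VIL1, with means of 136 CPM there and 62.8 CPM in Ls174. Some libraries stood apart. Mesenchymal markers summed to 961 CPM in HepG2 HME 2, mostly COL1A1 and COL1A2, against about 12 CPM or less in each other library. Only 3 of the 8 mesenchymal markers had a count in HepG2 HME 2, and COL6A3, DCN, LUM, PDGFRB and FAP were at 0 there. In HepG2, blood markers summed to 95.9 to 556 CPM, nearly all of it LYZ, while PTPRC and CD3E were at 0, and endothelial markers summed to at most 4.36 CPM in any library. ALB had 0, 0 and 176 counts in Ls174 control and 45, 0 and 29 counts in Ls174 HME libraries. HepG2 control 2 and Ls174 control 1 differed from the other controls of their lines for many of the genes described here, and the values below name them where they do.

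In untreated HepG2 cells the highest phase I level belonged to the carboxylesterases, which hydrolyse esters and amides. CES1 was at 247, 969 and 318 CPM (512 ± 398, SD, n = 3) and CES2 at 287, 900.1 and 291 CPM (493 ± 353), in each case with control 2 well above the other libraries. Of the stretches of 30 bases (30-base words) in the 3′ region of CES1, 31.1% recur in a region of CES1P1. Reads of these 2 genes may thus be hard to assign. CYP27A1, the sterol 27-hydroxylase of bile acid synthesis, followed with 139.6, 168 and 147 CPM (151 ± 14.6), and its replicates lay close together. CYP2W1, a P450 known for its expression in fetal gut and colon tumours, was counted mainly in the liver line, at 62.1, 56.7 and 75.6 CPM (64.8 ± 9.72), against 0, 2.48 and 1.79 CPM (1.43 ± 1.28) in Ls174 control cells. The ω-hydroxylase CYP4F3 was at 29.8, 106 and 31.9 CPM in HepG2, again with control 2 the highest.

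The CYP3A enzymes, which handle the largest share of drugs in adult liver, were low in HepG2. CYP3A5 was at 10.5, 10.6 and 10.9 CPM (10.7 ± 0.222) and CYP3A7, the fetal form, at 5.38, 0 and 4.45 CPM. CYP3A4, the adult form, had 1, 0 and 0 counts without HME and 0, 0 and 1 counts with it, and no count in Ls174. The largest share of the CYP3A5 counts in HepG2 (65 in all 6 libraries, 46.8% of the gene) fell in a non-coding exon at chr7:99257645-99257850 (GRCh37, minus strand), and 44 counts (31.7%) fell in an exon with coding and UTR sequence at chr7:99245620-99246023. The promoters of CYP3A4 and CYP3A7 are shown because the pair had 1 and 31 counts over the 3 HepG2 controls while most letters are the same. They are the 250 bases before the start of each RefSeq transcript (GRCh38.p14, minus strand), chr7:99784185-99784434 for CYP3A4 and chr7:99735197-99735446 for CYP3A7. An alignment found 236 identical bases, 13 mismatches and 2 unpaired bases, and capitals mark the bases that differ or have no partner.
CYP3A4: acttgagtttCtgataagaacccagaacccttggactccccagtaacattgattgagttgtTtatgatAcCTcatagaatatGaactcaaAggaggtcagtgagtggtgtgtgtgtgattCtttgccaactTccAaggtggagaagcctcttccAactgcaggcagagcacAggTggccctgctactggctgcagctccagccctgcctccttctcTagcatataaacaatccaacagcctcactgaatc
CYP3A7: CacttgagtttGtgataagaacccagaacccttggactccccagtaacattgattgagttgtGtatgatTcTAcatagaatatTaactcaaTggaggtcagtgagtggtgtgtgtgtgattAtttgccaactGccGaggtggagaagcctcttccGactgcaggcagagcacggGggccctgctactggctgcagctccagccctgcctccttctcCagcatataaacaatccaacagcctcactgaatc

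In Ls174 cells the highest phase I level was that of CYP2S1, a P450 of epithelia outside the liver, at 85.1, 55.6 and 48.6 CPM (63.1 ± 19.3), where HepG2 controls had 2.15, 1.25 and 0.404 CPM. CES2, the carboxylesterase typical of the intestine, was at 52.6, 34.8 and 33.5 CPM (40.3 ± 10.7), below every HepG2 control. The microsomal epoxide hydrolase EPHX1 was at 46.7, 11.5 and 15.9 CPM (24.7 ± 19.2), with control 1 apart, and overlapped its HepG2 values of 23.9, 25.5 and 43.2 CPM. All EPHX1 counts fell at chr1:226033049-226033457 (GRCh37, plus strand), which lies within a region of TMEM63A on the opposite strand. That region held 326 counts in Ls174 and 148 in HepG2, against 307 and 457 for EPHX1. Whether counting used the strand is not known. The vitamin D 25-hydroxylase CYP2R1 was at 12.8, 4.66 and 6.14 CPM in Ls174, against 0.538, 0 and 0.404 CPM in HepG2. CYP2B6, an enzyme of bupropion and efavirenz metabolism, had 0, 18 and 21 counts in Ls174 control cells and no count in HepG2 control cells. CYP3A5 was at 0, 0.310 and 1.02 CPM in Ls174 control cells, or 0, 1 and 4 counts.

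Among phase II enzymes the membrane-bound glutathione transferase MGST1 was high in both lines, at 297, 321 and 204 CPM (274 ± 61.7) in HepG2 and 379, 282 and 265 CPM (309 ± 61.4) in Ls174 control cells, and the groups overlapped. MGST2 was at 291, 44.9 and 194 CPM in HepG2 and at 32.9, 198 and 200.5 CPM in Ls174, so that HepG2 control 2 and Ls174 control 1 were each far below the other libraries of their line. The same libraries were the lowest for MGST3, with 99.0, 18.1 and 56.6 CPM in HepG2 and 15.2, 140.0 and 142 CPM in Ls174. In HepG2, the phenol sulfotransferase SULT1A1 reached 248, 324 and 228 CPM (266 ± 50.8), and SULT2A1, which sulfates bile acids and steroids, reached 286, 69.1 and 213 CPM (189 ± 110.2). Ls174 control cells had 32.5, 20.2 and 24.8 CPM of SULT1A1 (25.8 ± 6.20), 10.6-fold less (log2 difference 3.41 ± 0.37, SE, edgeR adjusted p = 0.000265).

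Of the transporters, the basolateral efflux pump ABCC3 was the highest in HepG2, at 60.5, 136 and 79.6 CPM (92.2 ± 39.5), followed by the organic cation carrier SLC22A3 at 84.2, 47.3 and 80.0 CPM (70.5 ± 20.2). ABCC2, which exports bilirubin glucuronides into bile, was at 46.0, 49.2 and 80.8 CPM (58.7 ± 19.3) in HepG2 and at 1.48, 0.621 and 0.256 CPM in Ls174. ABCB1, the multidrug efflux pump P-glycoprotein, was at 28.2, 31.8 and 32.7 CPM (30.9 ± 2.37) in HepG2, against 0.492, 1.86 and 1.28 CPM in Ls174. SLCO1B3, a hepatic uptake carrier that is also known from colon cancers, showed the opposite, with 18.7, 29.5 and 37.1 CPM (28.4 ± 9.26) in Ls174 and 0.269, 0 and 0.404 CPM in HepG2. Of its counts in Ls174, 428 (79.6%) fell in a UTR region at chr12:21069182-21069855 (GRCh37, plus strand), where HepG2 had none. The only other transporter kept in Ls174 was ABCC3, at 11.3, 5.28 and 5.38 CPM.

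In the order of control levels most neighbours overlapped. In HepG2 the order began with CES1, CES2, MGST1, SULT1A1, SULT2A1, MGST2 and CYP27A1, and the only neighbours whose replicates did not overlap were CYP27A1, whose lowest value was 139.6 CPM, and GSTA1 below it, whose highest was 123 CPM. In Ls174 it began with MGST1, MGST2, MGST3, CYP2S1, GSTK1 and CES2, and only MGST1, with a lowest value of 265 CPM, was clear of the next gene, MGST2, with a highest value of 200.5 CPM. The 51 genes together summed to 2595 to 3780.0 CPM in HepG2 control cells and to 824 to 924 CPM in Ls174 control cells.

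**Figure D1:**
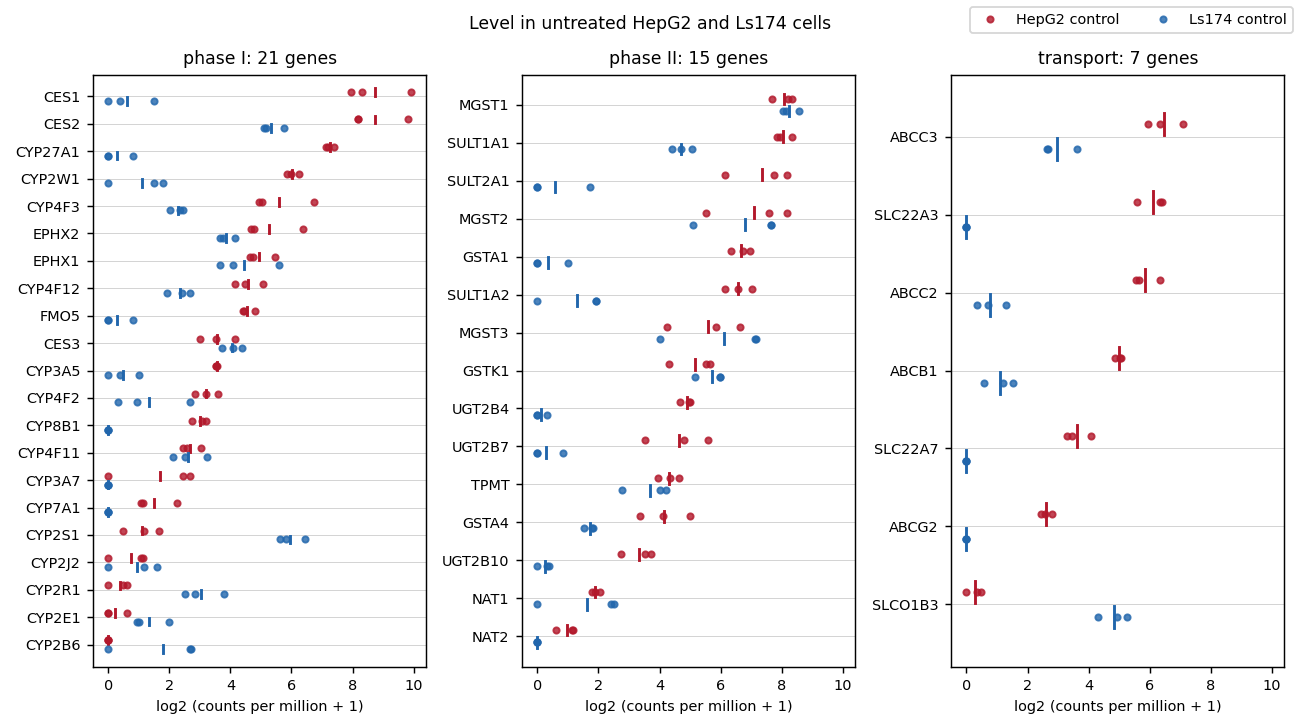
Level of the 43 genes kept in at least 1 line, by role, in untreated cells. The x axis gives log2 (CPM + 1), each point is 1 library (3 per line), and the vertical bar is the mean of the 3 values. Most genes lie further right in HepG2, while CYP2S1, CYP2R1 and SLCO1B3 lie further right in Ls174, and the MGST1 points of both lines overlap.

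The control libraries of both lines were compared to ask which of these genes differ at baseline. Of the 36 members that passed the filter on low counts, 27 had an adjusted p under 0.05, of which 24 were higher in HepG2 and 3 in Ls174. Over all 11907 genes tested the share called was 23.5%, with 14.2% higher in HepG2 and 9.33% higher in Ls174. The replicates of the lines did not overlap for 28 of the 36 members, 25 of them higher in HepG2 and 3 in Ls174, where this held for 42.6% of all genes, 22.3% higher in HepG2 and 20.3% in Ls174. The median log2 difference was 3.82 over the members (3.23 when the 4 members without a count in Ls174 control cells were set at their lower bound) and 0.04 over all genes. A member that passed the filter only through the line in which it was high had to differ, so these counts describe the members and are not a test of them as a group.

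The 10 phase I enzymes higher in HepG2 included CES1 (log2 difference 9.26 ± 1.01, adjusted p = 0.000260), CYP2W1 (5.37 ± 0.65, adjusted p = 0.000440) and CYP4F3 (3.91 ± 0.63, adjusted p = 0.00187). Without HepG2 control 2, the highest control of both genes, CES1 differed by 8.35 and CYP4F3 by 3.04, still called, while EPHX2 (1.76 ± 0.55, adjusted p = 0.0466) differed by 0.95 and was no longer called (adjusted p = 0.0979). For CYP27A1, with 1151 counts in HepG2 controls against 3 in Ls174 controls, the ratio was 451 (95% exact interval of the counts 154 to 2189). All 8 phase II enzymes called were higher in HepG2, among them GSTA1 (7.82 ± 0.75, adjusted p = 0.000154) and the glucuronosyltransferase UGT2B4, with 224 counts against 1 (ratio 263, interval 46.7 to 10439). CES1, CYP2W1 and GSTA1 had 8, 15 and 4 counts over the Ls174 controls and reached the filter through HepG2. Their adjusted p values are thus descriptive and no independent test of the difference. All 7 transporters tested were called, 6 of them higher in HepG2. Organic cation carrier SLC22A3 was at least 47.8-fold higher in HepG2 than the Ls174 floor, the organic anion carrier SLC22A7 at least 7.82-fold and the efflux pump ABCG2 at least 3.47-fold, since none of them had a count in Ls174 control cells. Intervals and bounds cover counting error only.

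The 3 genes higher in Ls174 were CYP2S1 (log2 difference, HepG2 minus Ls174, -5.47 ± 0.57, adjusted p = 0.000211, and -6.24 without HepG2 control 1), CYP2R1, with 65 counts against 3 (ratio 18.4, interval 6.04 to 91.8), and SLCO1B3, with 278 counts against 2 (ratio 118, interval 32.5 to 982). CYP2S1 had 11 counts over the HepG2 controls and reached the filter through Ls174, so its adjusted p is descriptive as well. The 9 members tested and not called were CYP4F2, CYP4F11, EPHX1, CES3, GSTK1, MGST1, MGST2, MGST3 and TPMT. Some low Ls174 values rested on 1 library. GSTA1 (4 counts), SULT2A1 (9), CYP27A1 (3), FMO5 (3) and UGT2B7 (3) were counted in control 3 and in neither other control, CES1 had 0, 1 and 7 counts, and ALB was counted in control 3 alone as well. Without control 3 the fitted log2 difference was 11.16 for CES1 and 11.10 for GSTA1, values that rest on 1 count and on none in Ls174 and depend on the prior count. Whether those counts came from Ls174 cells was not tested.

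HME was then compared with control in HepG2 to ask how the extract changed these genes. The 3 members with an adjusted p under 0.05 all fell, namely CYP2W1, the glutathione transferase GSTA1 and the organic anion carrier SLC22A7, 1 from each role. They were 3 of the 33 members tested (9.09%), where 3.31% of all 11343 genes tested were called and 0.538% were called as lower. By a looser rule, an unadjusted p under 0.05 with an absolute log2 fold change over 0.58 (the limits in the study's methods, called the nominal rule below), 14 of the 33 were called (42.4%). Of these 13 were lower and 1 was higher, where the rule called 22.2% of all genes, 10.9% as lower and 11.3% as higher. The groups did not overlap for 17 of the 33 members, 12 lower and 5 higher, where this held for 30.8% of all genes, 14.2% lower and 16.6% higher. Overlap was counted in the line's own scaling, in which ABCC2 and TPMT, among the 5 higher, were separated by very small margins. Both overlapped in the scaling over all 12 libraries, in which levels are given. CYP8B1, SLC22A7 and CES3 are among the members that reached the filter through the controls, in which they were higher. These counts thus describe the members only, and the adjusted p values of such members are descriptive as well. The median log2 fold change was -0.55 over the members and -0.04 over all genes, and 24 of 33 members were below 0. Scaling by library size alone moved the median of all genes to -0.20, and the nominal calls over all genes from 1282 higher and 1235 lower to 861 higher and 1729 lower. Liver markers moved the same way, with 8 of 10 below 0 and a median of -0.30, and their part in the result was not tested. In bulk RNA, fewer cells of a kind and less RNA per cell cannot be told apart.

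Phase I enzymes made up 8 of the 14. CYP2W1 went from 62.1, 56.7 and 75.6 CPM to 23.7, 17.0 and 18.0 CPM (19.6 ± 3.65), with every treated library below every control, a 3.27-fold fall (log2 fold change -1.71 ± 0.31, adjusted p = 0.0179). Its reads lay in a region of coding exon and UTR at chr7:1028165-1029473 (GRCh37, plus strand, ENSG00000073067). CYP8B1, the sterol 12α-hydroxylase that sets the make-up of the bile acid pool, had 21, 12 and 20 counts in control and 4, 0 and 0 counts in treated cells (log2 fold change -3.51 ± 0.87, adjusted p = 0.0590). All of its treated counts came from HME 1. Without that library the fitted log2 fold change was -7.11 (adjusted p = 0.0471), a value that rests on no treated count and depends on the prior count. The fitted value was -2.85 without HME 2, so that the size of the change is not well determined. CYP7A1, the rate-limiting enzyme of bile acid synthesis, had 4, 6 and 3 counts in control and 1, 0 and 0 in treated cells, too few for the filter. Both enzymes thus sat lower in treated libraries at few counts. CYP27A1, at 154, 123 and 135 CPM with HME, overlapped its controls (log2 fold change -0.14 ± 0.29, adjusted p = 0.807).

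The carboxylesterase CES3 was at 6.99, 16.8 and 10.5 CPM in control and at 2.37, 2.83 and 2.40 CPM in treated cells (log2 fold change -2.12 ± 0.52, adjusted p = 0.0590), and FMO5, a flavin-containing monooxygenase, at 20.7, 26.8 and 20.2 CPM against 9.10, 8.48 and 9.01 CPM (-1.33 ± 0.34, adjusted p = 0.0662). For both genes every treated library was below every control. CES2 was at 112, 196 and 244 CPM with HME (log2 fold change -1.45 ± 0.54, adjusted p = 0.160) and the soluble epoxide hydrolase EPHX2 at 10.3, 14.1 and 21.0 CPM, against 26.4, 81.6 and 24.7 CPM in control (-1.56 ± 0.55, adjusted p = 0.141). Control 2 was the highest of the controls for CES2 and EPHX2, and without it the log2 fold changes were -0.59 and -0.71. CES1 showed the same high control, and its treated libraries, at 311, 303 and 299.7 CPM, lay between control 1 and control 3 (-0.78 ± 0.52, adjusted p = 0.400). For EPHX2, 43.2% of the HepG2 counts fell in an intronic region at chr8:27369618-27369814 (GRCh37), with 35, 79 and 17 counts in control and 4, 14 and 20 in treated cells.

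Members of the CYP4F family, which hydroxylate fatty acids and eicosanoids, went different ways. CYP4F11 was at 7.26, 4.98 and 4.45 CPM in control and at 19.0, 10.6 and 14.4 CPM (14.7 ± 4.20) in treated cells, without overlap, and was the only member above control by the nominal rule (log2 fold change 1.38 ± 0.42, adjusted p = 0.100). CYP4F12 was at 16.9, 32.4 and 21.4 CPM against 17.4, 8.13 and 7.81 CPM, with HME 1 inside the range of the controls (-1.06 ± 0.45, adjusted p = 0.204), and at -0.69 without control 2. CYP4F2 and CYP4F3 did not pass either rule (-1.11 ± 0.51 and -0.89 ± 0.52), and 26.4% of the 30-base words in the 3′ region of CYP4F2 recur in that of CYP4F3. CYP3A5 was at 7.12, 6.01 and 12.6 CPM with HME, on both sides of its controls (-0.33 ± 0.42, adjusted p = 0.673), and CYP3A7 at 2.77, 1.77 and 1.20 CPM, with too few counts for the filter. The same filter left out NAT1, NAT2, CYP2S1 and CYP2J2 in HepG2.

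Of the 13 phase II enzymes tested, 4 passed the nominal rule (30.8%), all lower, and 1 of them, GSTA1, also had an adjusted p under 0.05. Over all genes tested the nominal rule called 22.2%, and 10.9% as lower. GSTA1, a cytosolic glutathione transferase abundant in hepatocytes, went from 123, 80.4 and 106 CPM (103 ± 21.4) to 33.2, 38.2 and 27.6 CPM (33.0 ± 5.28), without overlap, a 3.08-fold fall (log2 fold change -1.62 ± 0.31, adjusted p = 0.0216). Its main region is a UTR at chr6:52656265-52656655 (GRCh37, minus strand, ENSG00000243955), and 19.1% of the 30-base words there recur in a region of its paralog GSTA2, so that reads of the pair may be hard to assign. GSTA2, which is not among the 51 genes, was at 13.7, 6.85 and 19.0 CPM in control and at 2.37, 5.66 and 3.00 CPM in treated cells, also without overlap (-1.79 ± 0.52, adjusted p = 0.0903). The sequences upstream of both genes are shown because both lay lower in treated cells. They are the 250 bases before each RefSeq start (GRCh38.p14, minus strand), chr6:52803817-52804066 for GSTA1 and chr6:52763476-52763725 for GSTA2, with 243 identical bases and the 7 mismatches in capitals.
GSTA1: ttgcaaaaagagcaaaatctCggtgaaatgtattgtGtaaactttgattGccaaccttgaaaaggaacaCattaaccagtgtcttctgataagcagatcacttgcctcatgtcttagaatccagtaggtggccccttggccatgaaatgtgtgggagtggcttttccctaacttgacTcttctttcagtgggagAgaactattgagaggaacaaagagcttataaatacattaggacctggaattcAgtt
GSTA2: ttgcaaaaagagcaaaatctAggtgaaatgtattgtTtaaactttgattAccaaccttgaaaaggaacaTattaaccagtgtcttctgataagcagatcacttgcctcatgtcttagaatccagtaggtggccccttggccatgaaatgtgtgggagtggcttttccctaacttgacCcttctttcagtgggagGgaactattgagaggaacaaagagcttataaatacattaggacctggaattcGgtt

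The promoter table held 36 of the 51 members. On either strand of 250 bases before to 50 bases after the start, the letters TGACNNNGC of an antioxidant response element were found in 7 of them (19.4%), against 16.1% of all 27305 genes, and the AP-1 letters TGANTCA in 5 (13.9%), against 9.37%. The HNF4 letters CAAAGTCCA were found in 3 (8.33%), namely CYP2B6, CYP2C8 and CYP2R1, against 0.472%, and the HNF1 letters in none, against 0.396%. The 7 with the antioxidant response element were ABCG2, CYP2B6, CYP4F11, EPHX1, GSTA4, MGST1 and UGT2B10. These matches are descriptions of letters in a window and not binding sites.

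The glucuronosyltransferases of the UGT2B family, which conjugate steroids, bile acids and many drugs, included 3 members that were lower in treated HepG2 cells by the nominal rule. UGT2B10 was at 12.1, 5.61 and 10.5 CPM in control and at 3.96, 3.54 and 1.80 CPM with HME (log2 fold change -1.55 ± 0.49, adjusted p = 0.112), UGT2B4 at 30.4, 31.1 and 24.7 CPM against 16.2, 21.2 and 10.8 CPM (-0.81 ± 0.35, adjusted p = 0.213). Neither pair of groups overlapped. In the 3′ region of UGT2B10, 21.6% of the 30-base words recur in regions of other genes. UGT2B7 was at 27.2, 46.7 and 10.5 CPM against 7.91, 13.8 and 10.8 CPM, where control 3 lay among the treated libraries (-1.37 ± 0.54, adjusted p = 0.183, and -0.75 without control 2). UGT2B15 had 1 count in all HepG2 libraries and was not tested, and UGT2B11, which is not among the 51 genes, was at -0.75 ± 0.40 and passed neither rule (adjusted p = 0.294).

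The remaining phase II enzymes passed neither rule. The sulfotransferases SULT1A1, SULT1A2 and SULT2A1 had log2 fold changes of -0.44 ± 0.33, -0.23 ± 0.33 and -0.18 ± 0.45. Treated cells had 153, 241 and 197 CPM of SULT1A1 and 141, 175 and 174 CPM of SULT2A1, and both genes overlapped their controls. The membrane-bound MGST1, MGST2 and MGST3 lay above control at 0.48 ± 0.33, 0.82 ± 0.56 and 0.54 ± 0.52, with the low control 2 in MGST2 and MGST3, so that their signs were opposite to that of GSTA1. Methyltransferase TPMT was at 0.37 ± 0.32, with 25.7, 23.0 and 25.2 CPM in treated cells against 23.7, 14.3 and 19.4 CPM in control.

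Of the 6 transporters tested, SLC22A7 alone had an adjusted p under 0.05, where 3.31% of all genes tested had. This carrier had 33, 16 and 39 counts in control and 2, 6 and 0 counts in treated cells, or 8.87, 9.97 and 15.8 CPM (11.5 ± 3.70) against 0.791, 2.12 and 0 CPM (0.971 ± 1.07), a 10.0-fold fall (log2 fold change -3.33 ± 0.69, adjusted p = 0.0328). Every treated library was below every control, and 2 of the treated libraries were below the floor. SLC22A7 reached the filter through its controls, so its adjusted p is descriptive and no independent test of the fall. The size of the fall rests on few treated counts. Its counts lay mainly in a UTR region at chr6:43272464-43273473 (GRCh37, plus strand, ENSG00000137204), which overlaps a region of CRIP3 on the opposite strand that held 30 counts in HepG2. ABCC3 was at 60.5, 136 and 79.6 CPM against 41.5, 45.2 and 57.1 CPM (-0.95 ± 0.39, adjusted p = 0.190), and at -0.48 without control 2.

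The other efflux pumps lay higher in treated cells and did not pass either rule. ABCB1 was at 55.4, 47.4 and 39.0 CPM with HME (47.3 ± 8.18), each above the control range of 28.2 to 32.7 CPM (log2 fold change 0.63 ± 0.30, adjusted p = 0.250). ABCC2 was at 146, 83.8 and 77.5 CPM with HME (0.82 ± 0.37, adjusted p = 0.231). The last of these values lay within the control range in the scaling over all 12 libraries. In the line's own scaling, used to count overlap, the ABCC2 groups did not overlap, by a very small margin. ABCG2 was at 11.1, 8.48 and 6.61 CPM against 5.92, 4.98 and 4.45 CPM (0.78 ± 0.43, adjusted p = 0.305). SLC22A3 was at -0.55 ± 0.33.

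**Figure D2:**
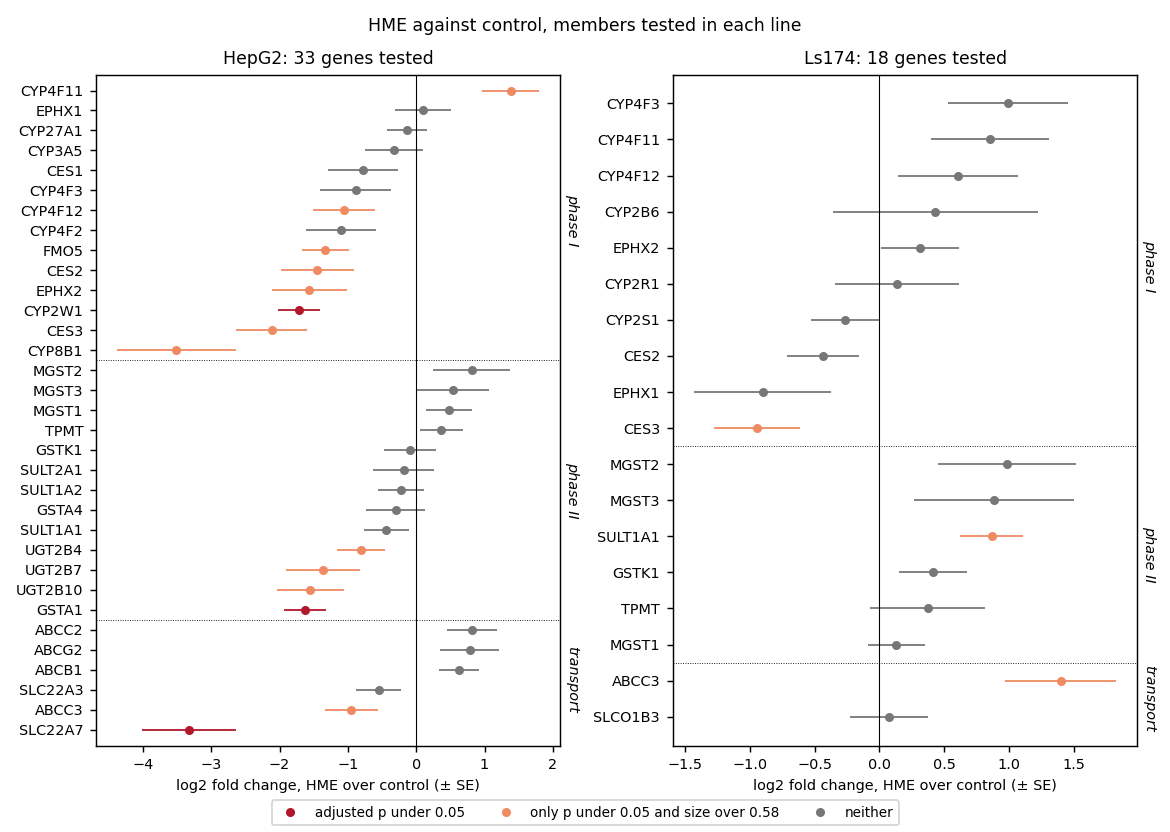
Log2 fold change of HME over control (x axis, points, with bars of ± 1 SE) for the 33 members tested in HepG2 and the 18 tested in Ls174, by role. In HepG2 24 of 33 points lie left of 0 and the 3 dark red ones (adjusted p under 0.05) are CYP2W1, GSTA1 and SLC22A7. In Ls174 14 of 18 lie right of 0 and none is dark red.

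The 3 calls depended on the libraries. Without control 2 all 3 remained, and the log2 fold change over all 6 sets of 5 libraries ranged from -1.85 to -1.59 for CYP2W1, from -1.72 to -1.50 for GSTA1 and from -4.46 to -2.90 for SLC22A7. However, the only member with an adjusted p under 0.05 was CYP2W1 without control 1 and CYP8B1 without HME 1, where CYP8B1 had no treated count left. There was none without control 3, HME 2 (the library with COL1A1 and COL1A2 transcripts) or HME 3. The highest adjusted p over these 6 fits was 0.117 for CYP2W1, 0.143 for GSTA1 and 0.147 for SLC22A7. Calls over all genes moved with them, from 375 to between 95 and 921.

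**Figure D3:**
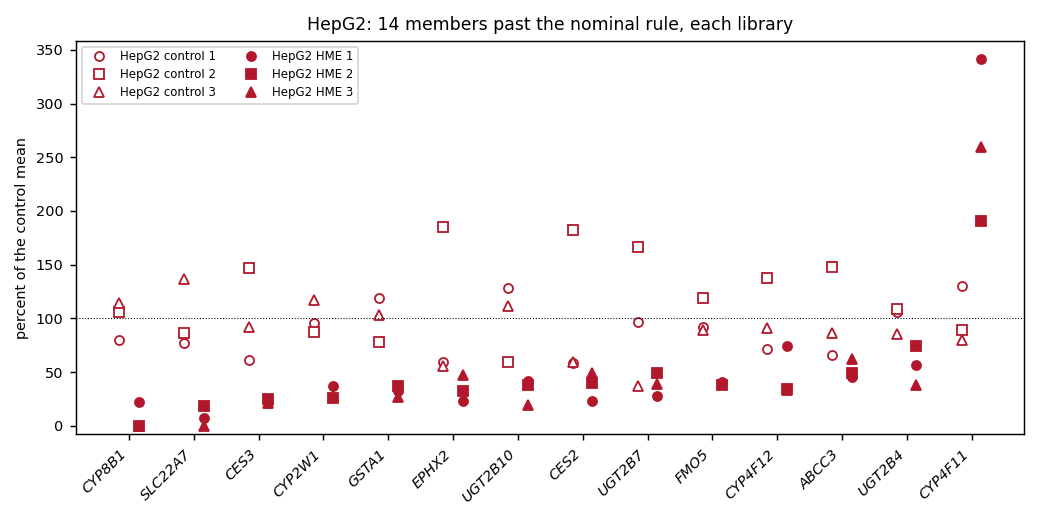
The 14 members past the nominal rule in HepG2, with each library as a percentage of the mean of the 3 controls (y axis, open symbols control, filled symbols HME, shape giving the replicate). CYP2W1, GSTA1, FMO5 and CES3 show treated values far below each control, while control 2 (open square) stands far above the other controls for EPHX2 and CES2, and CYP4F11 is the only gene whose treated values lie above the controls.

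Summed over a role, phase I levels in HepG2 were 907, 2417 and 1024 CPM in control and 747, 748 and 845 CPM with HME, which were all below the controls. CES1 and CES2 made up most of the control sums, with means of 512 and 493 CPM out of 1449 CPM. In control 2 they were at 969 and 900.1 CPM, so that the sums describe mainly these 2 genes. Phase II sums overlapped, at 1577, 1083 and 1277 CPM against 1077, 1490.1 and 1498 CPM, and so did transport sums, at 234, 279.7 and 294 CPM against 315, 228 and 222 CPM.

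In Ls174 cells the same comparison called none of the 18 members tested at an adjusted p under 0.05 in edgeR, and none in DESeq2, where edgeR called 1.18% of all 11319 genes. By the nominal rule 2 members were higher and 1 was lower (16.7% in all), where the rule called 4.11% of all genes as higher and 7.85% as lower, 12% in all. These 3 were also the members with an unadjusted p under 0.05, which 13.6% of all genes had. The groups did not overlap for 6 members that were higher and 1 that was lower, against 23.9% of all genes, 11.5% higher and 12.3% lower. Log2 fold changes were above 0 for 14 of 18, with a median of 0.39, against -0.00 over all genes. This lean depended on which members were tested, since the median was 0.04 over the members tested in a fit of all 12 libraries and -0.11 over those with at least 1 count, where 4 members were higher and 6 lower by the nominal rule. Intestine markers went the other way, with 7 of 8 below 0 and a median of -0.73, and their part in the result was not tested.

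SULT1A1 was at 32.5, 20.2 and 24.8 CPM in control and at 43.0, 51.9 and 46.0 CPM (47.0 ± 4.54) in treated Ls174 cells, without overlap (log2 fold change 0.86 ± 0.25, adjusted p = 0.173). Its 3′ region shares 23.8% of its 30-base words with a region of SULT1A3, so that part of these reads may belong to the paralog. ABCC3 was at 11.3, 5.28 and 5.38 CPM against 15.7, 14.6 and 26.3 CPM (18.8 ± 6.47), also without overlap (1.40 ± 0.43, adjusted p = 0.210). CES3 was at 19.7, 12.1 and 15.9 CPM against 6.92, 8.89 and 8.87 CPM (8.23 ± 1.13), the only member below control by the rule (-0.94 ± 0.33, adjusted p = 0.275). CES3 thus lay lower with HME in both lines and ABCC3 lower in HepG2 and higher in Ls174.

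The other Ls174 members passed neither rule. The glutathione transferases MGST2 and MGST3 were at 327, 265 and 264 CPM and at 226, 164 and 161 CPM with HME, above each control, with log2 fold changes of 0.98 ± 0.53 and 0.88 ± 0.62 that include the low control 1. Ls174 control 1 moved the calls, since without it 3 members had an adjusted p under 0.05, ABCC3 (1.83), SULT1A1 (1.06) and CYP4F11. CYP4F3 was at 4.43, 4.04 and 3.07 CPM against 4.74, 8.89 and 9.20 CPM (0.99 ± 0.46, adjusted p = 0.395). CYP2S1 was at 47.7, 49.1 and 61.1 CPM with HME (-0.26 ± 0.26) and SLCO1B3 at 35.7, 23.1 and 31.9 CPM (0.07 ± 0.30), and both overlapped their controls. Members with 10 counts that the filter left out in Ls174 were NAT1, GSTA4, CYP4F2, SULT1A2, CYP2E1, CYP2W1, ABCB1, CYP2J2, SULT2A1, CES1 and CYP3A5. Summed phase II levels were 532, 703 and 724 CPM in control and 984, 919.6 and 949 CPM with HME, while phase I and transport sums overlapped.

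Whether the change with HME differed between the lines was tested as an interaction on all 12 libraries. Of the 38 members tested, 1 had an adjusted p under 0.05, against 0.644% of 13040 genes (0.613% in the positive direction). By the nominal rule 1 member was positive and 6 were negative, where it called 7.42% and 5.75% of all genes (13.2% in all). The called gene was ABCB1 (log2 difference of the HME effect, HepG2 minus Ls174, 5.47, adjusted p = 0.0360). It rested on 1, 6 and 5 counts in Ls174 control cells and none in Ls174 HME cells, so that the fitted difference depends on the prior count and is no bound, and the Ls174 levels were at or near the floor in both groups. The gene entered the test through its HepG2 counts. The call was kept in 2 of the 12 fits that left out 1 library and was lost with library size only (adjusted p = 0.0591) and with a replicate block (adjusted p = 0.189), so that a difference between the lines is not established for ABCB1. ABCC3 differed by -2.35 ± 0.55 (adjusted p = 0.0793 in edgeR and 0.0104 in DESeq2), with a lower level in HepG2 and a higher one in Ls174. It differed by -2.75 without Ls174 control 1 (adjusted p = 0.0280), the only 1 of the 12 fits without 1 library with an adjusted p under 0.05. Its difference was -1.985 without HepG2 control 2. The edgeR adjusted p reached 0.255 without Ls174 HME 3 and 0.206 with a replicate block. A difference between the lines is thus not established for ABCC3 either. SULT1A1 (-1.30 ± 0.39, adjusted p = 0.163), EPHX2 (-1.86 ± 0.64), CYP4F3 (-1.86 ± 0.68), CYP4F12 (-1.68 ± 0.62) and CES1 (-2.24 ± 0.94) made up the rest of the 6 negative members. HepG2 control 2 was the highest HepG2 control for all 6, among them CES1 (969 CPM) and CYP4F3 (106 CPM). Apart from ABCC3, the part of that library in the shared sign was not tested. CES1 had 0, 1 and 7 counts in Ls174 controls and entered the test through HepG2.

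**Figure D4:**
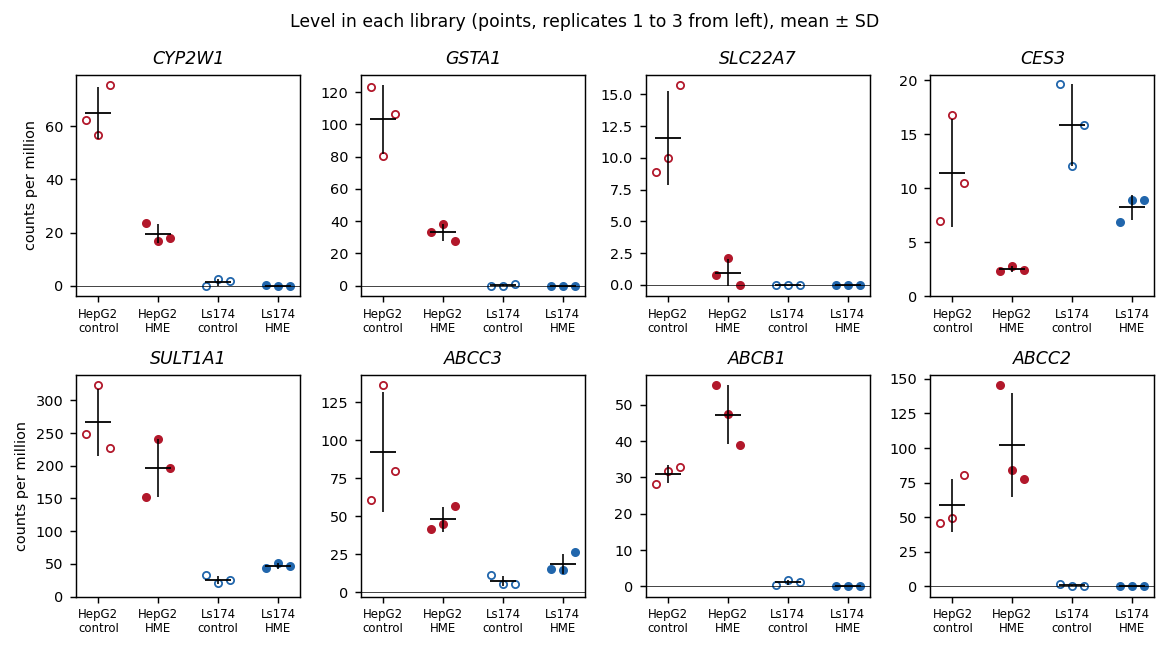
Levels in CPM (y axis, linear) of 8 members in each of the 12 libraries, with the mean and SD of each group as bars (open points control, filled points HME). CYP2W1, GSTA1 and SLC22A7 fall in HepG2 and are at or near 0 in Ls174, CES3 lies lower with HME in both lines, and ABCC3 lies lower in HepG2 and higher in Ls174.

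Genes of the same system outside the 51 were read from lists chosen by function. Of 14 regulators and electron donors of these enzymes, 13 were tested in HepG2, none had an adjusted p under 0.05 and 4 passed the nominal rule. Over all genes tested in HepG2, 3.31% had an adjusted p under 0.05 and 22.2% passed the nominal rule. The P450 reductase POR (log2 fold change 0.98 ± 0.33), the aryl hydrocarbon receptor AHR (1.36 ± 0.44) and the repressor of bile acid synthesis NR0B2 (1.67 ± 0.52) were higher, and the nuclear receptor partner RXRA was lower (-0.88 ± 0.33). Of 42 other enzymes 24 were tested, and CYP1A1, the classical target of AHR, rose from 74.8, 21.8 and 55.0 CPM in control to 306, 361 and 399 CPM (2.84 ± 0.44, adjusted p = 0.00925), while the alcohol dehydrogenase ADH4 fell from 40.5 ± 20.5 CPM to 9.12 ± 2.85 CPM (SD, n = 3 each; -2.14 ± 0.47, adjusted p = 0.0400). ADH6 and GSTA2 were also lower by the nominal rule. The glutathione transferase GSTP1, not tested in HepG2, had 13, 2 and 17 counts in control and 4, 2361 and 2 counts in HME libraries. Its high value thus came from HME 2 alone, the library that also held COL1A1 and COL1A2. Of 15 other transporters 11 were tested, with none at an adjusted p under 0.05, and SLCO4A1 was higher (1.13 ± 0.30) and ABCC6 (-1.13 ± 0.32) and SLCO4C1 (-1.30 ± 0.58) were lower by the nominal rule.

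In Ls174 none of these lists held a gene with an adjusted p under 0.05. By the nominal rule 1 of 10 regulators tested (PGRMC1, lower), 5 of 16 other enzymes (CYP1A1, ALDH2 and ALDH3A2 higher, HNMT and CYP2U1 lower) and 1 of 5 other transporters (ABCC1, lower) were called. CYP1A1 was at 0, 6.52 and 10.8 CPM in control and at 25.9, 41.6 and 25.3 CPM in treated Ls174 cells (2.31 ± 0.70, adjusted p = 0.210).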

How the data were processed

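RNA of 12 cultures of the established lines HepG2 and Ls174 was measured with 3′ mRNA libraries. According to the study's methods the authors sequenced on an Ion Torrent instrument, aligned reads to hg19 (GRCh37) with Hisat2 and used metaseqR2 (the submitters' processing notes also name Bowtie2 and Trimmomatic, without versions). The deposited files hold a raw count of reads per 3′ region, without normalization, and how reads with several alignments were treated is not given in the sources used here. Such reads, and regions shared by genes, can move counts between paralogs.

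Here a gene's count was the sum over its regions. edgeR 4.0.16 in R 4.3.3 (TMM, filterByExpr, quasi-likelihood F test, two-sided, Benjamini-Hochberg over all genes tested) was fitted on the 6 libraries of each comparison, or on all 12 for the interaction, each fit with its own TMM factors. SE was derived from the F statistic and is left out where a group had 3 counts or fewer. Overlap of groups was counted within a line's own scaling. DESeq2 1.42.0, other scalings, filters, a replicate block and leaving out each library were alternatives. The fits were tested on simulated data. No replicates were duplicates. Python 3.11.15 with pandas 2.3.3, numpy 2.4.6, Biopython 1.88 (promoter alignments) and matplotlib 3.10.9 made the other tables and the plots.

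Members and lists were chosen with earlier results of these data known. Named with values were members called in HepG2, Ls174 or the interaction, the 3 highest per role and line, and CYP3A4, CYP3A5, CYP7A1, ABCB1 and ABCC2. Other genes named were chosen after their values were seen. Groups follow the labels, which number the replicates.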

Additional observations from a re-analysis of the deposited data

Results flagged for a closer look

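ABCB1 had an adjusted p under 0.05 in the test of whether its change with HME differed between the lines, with a fitted log2 difference of 5.47 (HepG2 minus Ls174, edgeR adjusted p = 0.0360), but the call was kept in only 2 of the 12 fits that left out 1 library (adjusted p 0.0215 to 0.130). In HepG2 all 3 treated libraries (55.4, 47.4 and 39.0 CPM) lay above the 3 controls (28.2, 31.8 and 32.7 CPM). In Ls174 the gene had 1, 6 and 5 counts in control and 0 in each treated library, so that the difference rests on 12 counts, its size depends on the prior count, and a difference between the lines is not established.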

How the results depend on the processing

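The members with an adjusted p under 0.05 in HepG2 numbered 3, and 6 with DESeq2, 6 with library size only, 8 with every gene of at least 1 count, 14 by the nominal rule and 0 to 3 when 1 library was left out. Those past the nominal rule in HepG2 numbered 14, and 9 to 14 when 1 library was left out and 11 to 17 under the other settings. In Ls174 the adjusted calls numbered 0, and 3 without the filter, 1 in a fit of all 12 libraries, 3 by the nominal rule and 0 to 3 when 1 library was left out (3 without control 1). The median log2 fold change of the Ls174 members was 0.39, and -0.11 without the filter and 0.04 in the fit of all 12 libraries. The nominal calls in Ls174 numbered 3, and 10 without the filter (4 higher, 6 lower), 7 in the fit of all 12 libraries (2 higher, 5 lower) and 2 to 5 when 1 library was left out. The interaction called 1 member, and 2 with DESeq2, 2 without the filter, 0 with library size only, 0 with at least 10 counts in every library and 0 to 2 when 1 library was left out. Between the controls 27 members were called, and 4 when every library had to hold at least 10 counts, which removes genes low in 1 line. Of the values for single members, none changed sign, 586 kept their direction and side of the threshold, 20 passed it only under an alternative and 35 no longer passed it. These values cover mainly members past a rule in the main fit, many of them between the controls, so that a stable sign was largely set by the selection. In HepG2 the adjusted call was kept in 2 of the 6 fits without 1 library for CYP2W1, in 1 for GSTA1 and in 1 for SLC22A7. No pairing by replicate number was detected. Same-numbered treated and control libraries had correlations of deviations of -0.165, 0.0884 and -0.121 in HepG2 and of -0.0305, -0.0047 and -0.0535 in Ls174. Libraries of unlike number ranged from -0.199 to 0.303 in HepG2. With 3 libraries per group and some that stood apart, these correlations cannot exclude a pairing. A replicate block left 2 adjusted and 12 nominal calls in HepG2, 0 and 2 in Ls174, 0 in the interaction and 26 between the controls. Over all genes, the HepG2 median of -0.04 was 0.01 without control 2, and adjusted calls ranged from 95 to 921 in HepG2 and from 0 to 979 in Ls174 when 1 library was left out. Where calls moved, the cause was not tested. Genes near the floor of 3 counts are limited by depth.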
